A study of Mus musculus with 8 samples.

Results

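Striatal projection neurons are the GABAergic output neurons of the striatum and are born in the lateral ganglionic eminence (LGE), the neighbour of the medial ganglionic eminence (MGE). The 10 genes followed here were listed by name: Isl1, Ebf1, Zfp503, Foxp1, Foxp2, Bcl11b, Ikzf1, Tle4, Drd1 and Drd2. They were found through the RefSeq accession of each array probe, which gave 12 probes of the 41174 on the array and 10 of the 17178 gene symbols matched. RNA was measured in micro-dissected MGE of C57BL/6 mouse embryos at embryonic day 13.5, with 4 arrays of WT tissue and 4 of the Nkx2-1 conditional knockout, Nkx2-1cKO. The labels give the WT genotype as Nkx2-1flox/+;Olig2tva-cre- and that of the mutant as Nkx2-1flox/+;Olig2tva-cre+, so all animals carry a floxed Nkx2-1 allele and the groups differ in the Olig2-driven Cre. The methods name a line with both alleles floxed, and the labels do not settle which was used. The + in the labels stands for an allele without the flox, while the Nkx2-1 signal of the mutant arrays was 1.24% of WT. The genotype itself was not tested. NKX2-1 is the homeodomain transcription factor that specifies the MGE, and recombination is limited to cells with a history of Olig2 expression. Nothing says that the arrays of a group came from separate embryos, so the p-values measure only the spread between these arrays, which may be technical.

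Projection neurons of the striatum fall into a pair of classes. Neurons of the direct pathway carry the D1 dopamine receptor, encoded by Drd1, and use substance P, made from Tac1, while neurons of the indirect pathway carry the D2 receptor, encoded by Drd2, and use enkephalin, made from Penk. Isl1, a LIM homeodomain factor, and Ebf1, a helix-loop-helix factor, act in the differentiation of direct pathway neurons. Zfp503, also called Nolz1, encodes a zinc finger protein of the LGE and young striatum. The forkhead genes Foxp1 and Foxp2, the zinc finger genes Bcl11b (Ctip2) and Ikzf1 (Ikaros), and Tle4, a corepressor of the Groucho family, are expressed as these neurons mature. The same genes have other sites of expression: Bcl11b also marks other neurons, Ikzf1 is best known from blood cells, and Isl1 is also used by cholinergic neurons.

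RefSeq promoter windows of 300 bases, 250 before and 50 after a start site, were at hand for 9 of the 10 genes in 15 windows (build GRCm38.p6). Those of the 3 genes with the largest differences reported below are printed here, since all of them were called higher: Isl1 (chr13:116309639-116309938, minus strand), Zfp503 (chr14:21989552-21989851, minus strand) and the second of the Ebf1 windows (chr11:44619978-44620277, plus strand). All are written 5′ to 3′ on the strand of the gene, and capitals mark the letters CAAGTG.
Isl1: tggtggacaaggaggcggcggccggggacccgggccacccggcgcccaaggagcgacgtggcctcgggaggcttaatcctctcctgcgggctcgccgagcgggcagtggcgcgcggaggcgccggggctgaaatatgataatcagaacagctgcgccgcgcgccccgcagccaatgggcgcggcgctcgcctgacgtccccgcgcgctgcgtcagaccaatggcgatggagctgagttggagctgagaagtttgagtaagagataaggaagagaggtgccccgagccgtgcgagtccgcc
Zfp503: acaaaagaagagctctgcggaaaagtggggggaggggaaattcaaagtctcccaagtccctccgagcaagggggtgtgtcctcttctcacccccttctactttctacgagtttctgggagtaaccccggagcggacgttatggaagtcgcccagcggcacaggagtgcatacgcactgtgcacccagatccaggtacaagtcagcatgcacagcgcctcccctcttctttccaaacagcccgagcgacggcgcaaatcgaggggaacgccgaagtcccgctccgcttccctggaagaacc
Ebf1: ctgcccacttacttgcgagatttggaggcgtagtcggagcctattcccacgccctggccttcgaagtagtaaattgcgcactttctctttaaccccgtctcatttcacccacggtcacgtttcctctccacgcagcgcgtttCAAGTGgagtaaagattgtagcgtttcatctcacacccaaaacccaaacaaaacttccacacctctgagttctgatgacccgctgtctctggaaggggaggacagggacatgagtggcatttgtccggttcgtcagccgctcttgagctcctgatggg
Short motifs were searched on both strands, the core letters bound by NK2 homeodomain proteins (CAAGTG), a MEIS motif (TGACAG) and a general homeodomain core (TAATTA). The NK2 letters or their reverse complement stood in 2 of the 15 windows, in Ebf1 with its first base at -108 and in a Drd1 window (chr13:54054731-54055030, minus strand) at -12. All mouse windows of the table held them in 13.6% of cases. TGACAG was found in 1 of the 15 windows, in Foxp1 (chr6:99266466-99266765, minus strand) with its first base at -151, against 19.2% of all windows. The same Foxp1 window held TAATTA at -240, a motif present in 5.3% of all windows. The Isl1 and Zfp503 windows held none of these letters. Their GC content was 69.0% for Isl1 and 58.3% for Zfp503. That of the printed Ebf1 window was 53.0%, beside a median of 52.7% over all windows. The first Ebf1 window (chr11:44617850-44618149, plus strand), which is not printed, held none of these letters and had a GC content of 36.7%. A match in such a window is a description of the sequence and not a measured site.

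The 8 arrays had between 29278 and 32745 probes well above background, and 31288 probes in this state on at least 4 arrays were tested. No spot was saturated. Nkx2-1 was measured first as a check of the labels. The WT arrays stood at 1.87 ± 0.06 (SD, n = 4) and those of Nkx2-1cKO at -4.46 ± 0.19 (SD, n = 4), in log2 units above the 75th percentile of each array, which is the scale of all values that follow. The mutant level was 1.24% of WT (limma adjusted p = 4.68e-09), and the place of the probe relative to the floxed part of the gene was not examined. Lhx6 and Lhx8, which mark the MGE in WT, fell to 5.43% and 7.88% of WT. Each group had 2 arrays on each of 2 slides, and scan time coincided with the slide. WT replicate 1 stood apart for dim probes. On that array the probes of the dimmest quintile were a median of 1.18 log2 units above their median over the other 7 arrays. The same measure was -0.41 to 0.22 for each of those 7 arrays. Of the 10 genes, Ikzf1 lay in this dimmest quintile and Drd1 and Drd2 in the next.

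Of the 10 striatal genes, 5 rose in the mutant MGE. All 10 had a higher mean in Nkx2-1cKO than in WT, and those 5, Isl1, Ebf1, Zfp503, Foxp2 and Tle4, passed an adjusted p of 0.05 in limma. None passed it as lower. Over the 14453 genes with a tested probe, 0.491% were called higher and 0.851% lower at that adjusted threshold. At an unadjusted limma p of 0.05, 7 of the 10 were higher and 0 lower. The share of all genes at this unadjusted threshold was not computed. The unadjusted counts here and in the lists below therefore have no background beside them. In 7 of the 10 genes every mutant array lay above every WT array, an arrangement seen in 2.82% of all genes, while 4.02% of all genes had every mutant array below every WT array. The median log2 fold change of the 10 genes was 0.62, beside 0 over all genes. The count of 5 was 3 without WT replicate 3, without WT replicate 4 or without Nkx2-1cKO replicate 1, and Isl1, Ebf1 and Zfp503 were called in each of these cases. In bulk tissue, more cells that express a gene and more RNA of it per cell cannot be told apart.

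**Figure D1:**
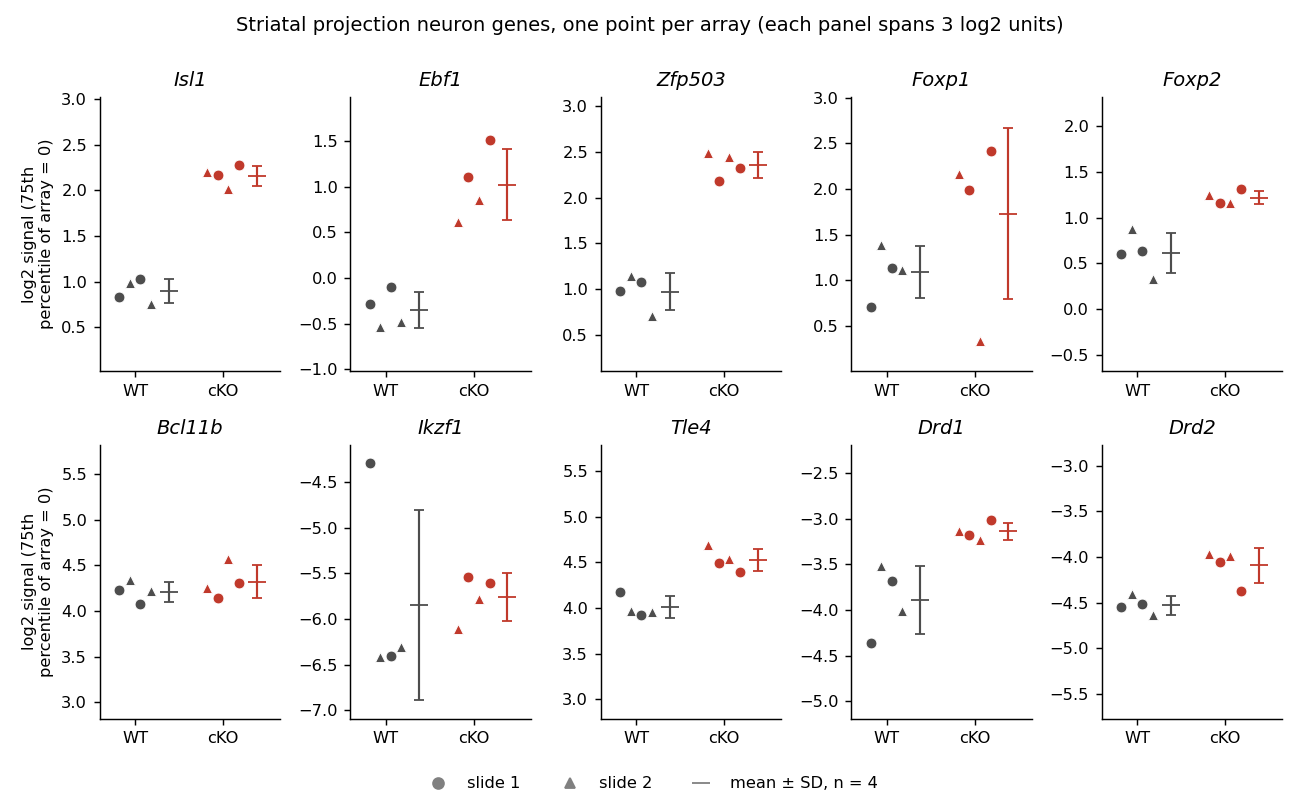
Log2 signal of each gene relative to the 75th percentile of its array (y axis, 3 log2 units in every panel) in the 4 WT (grey) and 4 Nkx2-1cKO (cKO, red) arrays, with circles for slide 1, triangles for slide 2 and the mean ± SD beside the points. Isl1, Ebf1 and Zfp503 show wide gaps between the groups, Foxp1 has 1 mutant array at 0.34 below all WT arrays, and Ikzf1 has 1 WT array at -4.29 above all others.

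Isl1 rose 2.40-fold. Its probe (accession NM_021459) gave 0.83, 0.98, 1.03 and 0.76 in WT replicates 1 to 4 and 2.20, 2.17, 2.01 and 2.28 in the mutant. The lowest mutant array lay well above the highest WT array. The means were 0.90 ± 0.13 (SD, n = 4) and 2.16 ± 0.11 (SD, n = 4). The log2 fold change was 1.26 (SE 0.09, 95% interval 1.05 to 1.47, limma adjusted p = 0.000163), and it was 1.29 within slide 1 and 1.24 within slide 2.

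Zfp503 showed the largest difference of the 10 genes. The values were 0.98, 1.14, 1.08 and 0.70 in WT and 2.49, 2.18, 2.45 and 2.32 in Nkx2-1cKO, so that the groups were again far apart. The mean went from 0.97 ± 0.20 (SD, n = 4) to 2.36 ± 0.14 (SD, n = 4). This is a 2.62-fold rise (log2 fold change 1.39, SE 0.12, limma adjusted p = 0.000328), with 1.22 within slide 1 and 1.55 within slide 2. Of all genes, 0.104% had a larger log2 fold change than Zfp503.

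Ebf1 was dimmer and more variable among the mutants. WT arrays gave -0.28, -0.54, -0.10 and -0.48, and mutant arrays gave 0.61, 1.11, 0.85 and 1.51. The highest WT value was still well under the lowest mutant value. The means were -0.35 ± 0.20 (SD, n = 4) and 1.02 ± 0.39 (SD, n = 4), a 2.58-fold rise (log2 fold change 1.37, SE 0.19, 95% interval 0.95 to 1.78, limma adjusted p = 0.00653). Within slide 1 the log2 difference was 1.5 and within slide 2 it was 1.24.

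The forkhead genes gave a less even picture. Foxp2 was represented by its brighter probe, with 0.60, 0.88, 0.64 and 0.33 in WT and 1.25, 1.16, 1.16 and 1.31 in the mutant. The groups did not overlap, and the 4 mutant arrays lay close together. The mean rose from 0.61 ± 0.22 (SD, n = 4) to 1.22 ± 0.07 (SD, n = 4), which is 1.52-fold (log2 fold change 0.60, SE 0.11, limma adjusted p = 0.0417). This call lay near the threshold: of the 8 fits that each left out 1 array, it was kept only in the fit without WT replicate 2. A second, dimmer Foxp2 probe also had non-overlapping groups, with WT arrays at -2.80 to -2.45 and mutant arrays at -2.21 to -1.86. Its log2 difference of 0.55 (SE 0.12) did not pass the threshold (limma adjusted p = 0.0933).

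Foxp1 did not pass the test, and 1 array decided this. The WT values were 0.71, 1.39, 1.13 and 1.11, and the mutant values were 2.16, 1.99, 0.34 and 2.42. Nkx2-1cKO replicates 1, 2 and 4 lay above every WT array, while replicate 3 lay below every WT array. The means of 1.09 ± 0.28 (SD, n = 4) and 1.73 ± 0.94 (SD, n = 4) differed by 0.64 log2 units (SE 0.39, 95% interval -0.24 to 1.52, limma adjusted p = 0.657). The exact two-sided permutation test gave p = 0.257. Without Nkx2-1cKO replicate 3 the log2 fold change was 1.10 (SE 0.17, limma adjusted p = 0.022). The processed signal of the Foxp1 probe was 2564 on that array and 10026 to 12641 on the other 3 mutant arrays. The scanner software did not mark the spot as an outlier. Isl1 and Zfp503 were at 2.01 and 2.45 on the same array, and 2.01 was the lowest mutant value of Isl1. This array had the lowest 75th percentile of signal, 2028.2 against 2363.9 to 2574.4 on the others. It also had the most outlier spots (147) and the fewest probes well above background (29278). Whether the spot or the array lay behind the Foxp1 value was not tested.

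Tle4 was bright in both groups and rose 1.43-fold. It gave 4.18, 3.97, 3.93 and 3.96 in WT and 4.69, 4.49, 4.54 and 4.40 in Nkx2-1cKO, without overlap. The means were 4.01 ± 0.12 (SD, n = 4) and 4.53 ± 0.12 (SD, n = 4). The log2 fold change was 0.52 (SE 0.09, 95% interval 0.32 to 0.72, limma adjusted p = 0.0234), with 0.39 within slide 1 and 0.65 within slide 2. The call held in 3 of the 8 fits that each left out 1 array, namely those without WT replicate 1, without Nkx2-1cKO replicate 2 and without Nkx2-1cKO replicate 4.

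Bcl11b was also bright, and its groups overlapped. The brighter probe gave 4.23, 4.34, 4.07 and 4.22 in WT and 4.25, 4.14, 4.57 and 4.31 in the mutant. The log2 difference was 0.10 (SE 0.10, 95% interval -0.12 to 0.33, limma adjusted p = 0.736), so a rise above 0.33 log2 units lay outside the interval. The second probe differed by 0.06 (SE 0.11, limma adjusted p = 0.855), with overlapping groups as well.

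Ikzf1 gave the dimmest signal, and its comparison rested on 1 WT array. WT replicate 1 was at -4.29, while the other WT arrays were at -6.41, -6.40 and -6.31, and the mutant arrays were at -6.11, -5.54, -5.78 and -5.61. The mutant arrays lay between these WT values. With all arrays the log2 difference was 0.09 (SE 0.47, 95% interval -0.98 to 1.15, limma adjusted p = 0.959), and the exact two-sided permutation test gave p = 0.914. Without WT replicate 1, the array on which dim probes stood high, it was 0.61 (SE 0.22, limma adjusted p = 0.475). It was negative, from -0.10 to -0.06, when any one of WT replicates 2, 3 and 4 was left out. The part of WT replicate 1's dim signal in this value was not tested otherwise.

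Both dopamine receptor genes were dim at this age, and neither passed the threshold. Drd1 gave -4.36, -3.52, -3.68 and -4.01 in WT and -3.14, -3.18, -3.23 and -3.02 in the mutant. Every mutant array was above every WT array, and the mutants were tightly grouped. The means were -3.89 ± 0.37 (SD, n = 4) and -3.14 ± 0.09 (SD, n = 4), a log2 fold change of 0.75 (SE 0.19, 95% interval 0.34 to 1.17, limma adjusted p = 0.142). Drd2 gave -4.55, -4.41, -4.51 and -4.64 in WT and -3.97, -4.05, -3.99 and -4.37 in the mutant, again without overlap, though Nkx2-1cKO replicate 4 came close to WT replicate 2. The log2 fold change was 0.43 (SE 0.16, 95% interval 0.09 to 0.78, limma adjusted p = 0.439). For each receptor the exact two-sided permutation p was 0.0286, the smallest that 4 arrays against 4 can give.

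Under 21 other ways of processing or choosing the arrays, Isl1 kept its call throughout with log2 fold changes between 1.21 and 1.38, and so did Zfp503 with 1.22 to 1.55. Ebf1 ranged from 1.21 to 1.51 and was called in 20 of the 21. Tle4, with 0.39 to 0.65, was called in 10. Foxp2, with 0.51 to 0.72, was called in 6. Drd1 and Drd2 were positive throughout, with 0.58 to 0.99 and 0.32 to 0.71, and were called in none. Bcl11b stayed between 0.02 and 0.22.

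**Figure D2:**
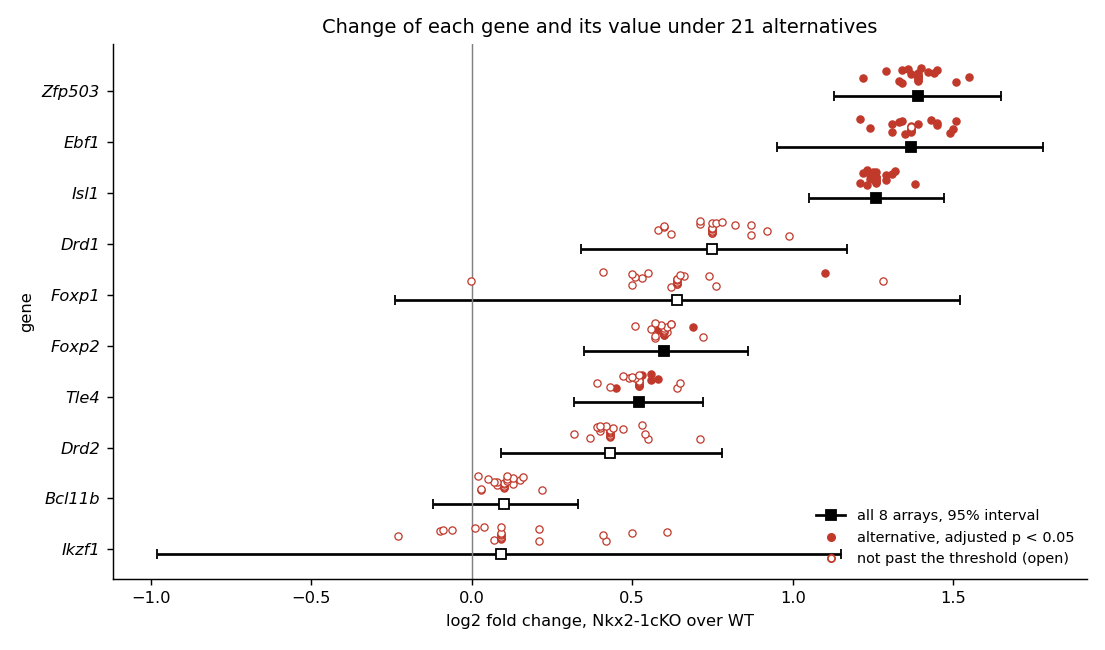
Log2 fold change of Nkx2-1cKO over WT (x axis) for each of the 10 genes (y axis), with the fit of all 8 arrays as a black square and its 95% interval, and each of 21 alternatives as a red circle, filled where limma's adjusted p was under 0.05. Zfp503, Ebf1 and Isl1 lie above 1 throughout, whereas Foxp1 runs from near 0 to 1.28 and Ikzf1 from -0.23 to 0.61.

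Within the groups, the correlations between the 10 genes were of both signs. For each gene the deviation of an array from its group mean was taken and correlated between genes over the 8 arrays, which all pairs share. The highest correlation was 0.77 between Zfp503 and Foxp2, followed by 0.72 between Isl1 and Foxp1. The lowest was -0.80 between Ikzf1 and Drd1. Single arrays far from their group mean enter these values. On WT replicate 1 Ikzf1 was at -4.29 (WT mean -5.85) and Drd1 at -4.36 (WT mean -3.89). On Nkx2-1cKO replicate 3 Foxp1 was at 0.34 (mutant mean 1.73) and Isl1 at 2.01 (mutant mean 2.16). The correlations without these arrays were not tested. These correlations are a description, given with no test. The spread between the 8 arrays may be technical, so they cannot show whether the genes vary together. Across all 8 arrays, both groups included, the genes whose signal ran most like that of Zfp503 were Rgs2 (Pearson r 0.99), Msantd1 (0.989), Sybu (0.984), Isl1 (0.979) and Psmg1 (0.978). The group means were not taken out here, so the difference between WT and mutant enters these values. The log2 fold changes of these genes were 0.75 for Rgs2, 1.17 for Msantd1, 0.91 for Sybu, 1.26 for Isl1 and 0.27 for Psmg1. Psmg1 was not called (limma adjusted p = 0.198).

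Other transcription factors of the LGE and striatum moved in part. Of 19 listed, 18 were tested, 5 were called higher and 1 lower in limma, and their median log2 fold change was 0.18. Rarb, a retinoic acid receptor that acts in the striatum, rose 2.84-fold (log2 fold change 1.51, SE 0.21, adjusted p = 0.00736). Six3, a homeobox gene of the LGE, rose 1.99-fold (adjusted p = 0.00336), and Sox8 rose 2.14-fold (adjusted p = 0.0153). Meis2, a homeobox gene of LGE progenitors and striatal neurons, rose 1.98-fold (adjusted p = 0.0462), and the POU gene Pou3f1 rose 1.67-fold (adjusted p = 0.0456). Rxrg, a retinoid X receptor, was higher on every mutant array without passing the threshold (log2 fold change 0.99, SE 0.24, adjusted p = 0.14). Etv1, an ETS factor, fell to 35.1% of WT (log2 fold change -1.51, SE 0.09, adjusted p = 2.9e-05). Gsx2, the homeobox gene of LGE progenitors, differed by 0.42 (SE 0.15, adjusted p = 0.409). WT replicate 1 was the lowest WT array for Rarb (-1.01), Sox8 (-1.76), Meis2 (4.10) and Rxrg (0.29). Without it the log2 fold change was 1.27 for Rarb (1.51 with it), 0.93 for Sox8 (1.10) and 0.77 for Meis2 (0.98). Rarb, Sox8 and Meis2 were still called. Six3 was at 0.96 (0.99) and Pou3f1 at 0.75 (0.74), though Pou3f1 was not called. The count of 5 became 2 without WT replicate 3 or without any one of Nkx2-1cKO replicates 1, 3 and 4, and 3 without WT replicate 4. Of the 21 alternatives, Six3 was called in 20, Rarb in 18, Sox8 in 14, Pou3f1 in 8, Meis2 in 6 and Etv1 in 21.

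Genes that striatal neurons use for signalling formed another list. Of 20 listed, 17 were tested, 2 were called higher and none lower in limma, with a median log2 fold change of 0.16. At an unadjusted limma p of 0.05 the counts were 7 and 0, without a share over all genes beside them. Tac1, the substance P precursor of direct pathway neurons, rose 2.04-fold (log2 fold change 1.03, SE 0.19, limma adjusted p = 0.0326). The opioid receptor gene Oprm1, which was dim and well above background on 3 of the 4 WT arrays, had a log2 fold change of 1.2 (SE 0.26) with every mutant array above every WT array and did not pass (limma adjusted p = 0.0744). Penk, the enkephalin precursor of indirect pathway neurons, differed by 0.62 (SE 0.21, limma adjusted p = 0.391). Ppp1r1b, which encodes DARPP-32 of mature projection neurons, differed by -0.16 (SE 0.33). Both calls were near the threshold: none of the 17 was called without WT replicate 4 or without any one of Nkx2-1cKO replicates 1, 2 and 3, and 1 was called without WT replicate 1, without WT replicate 2 or without Nkx2-1cKO replicate 4.

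**Figure D3:**
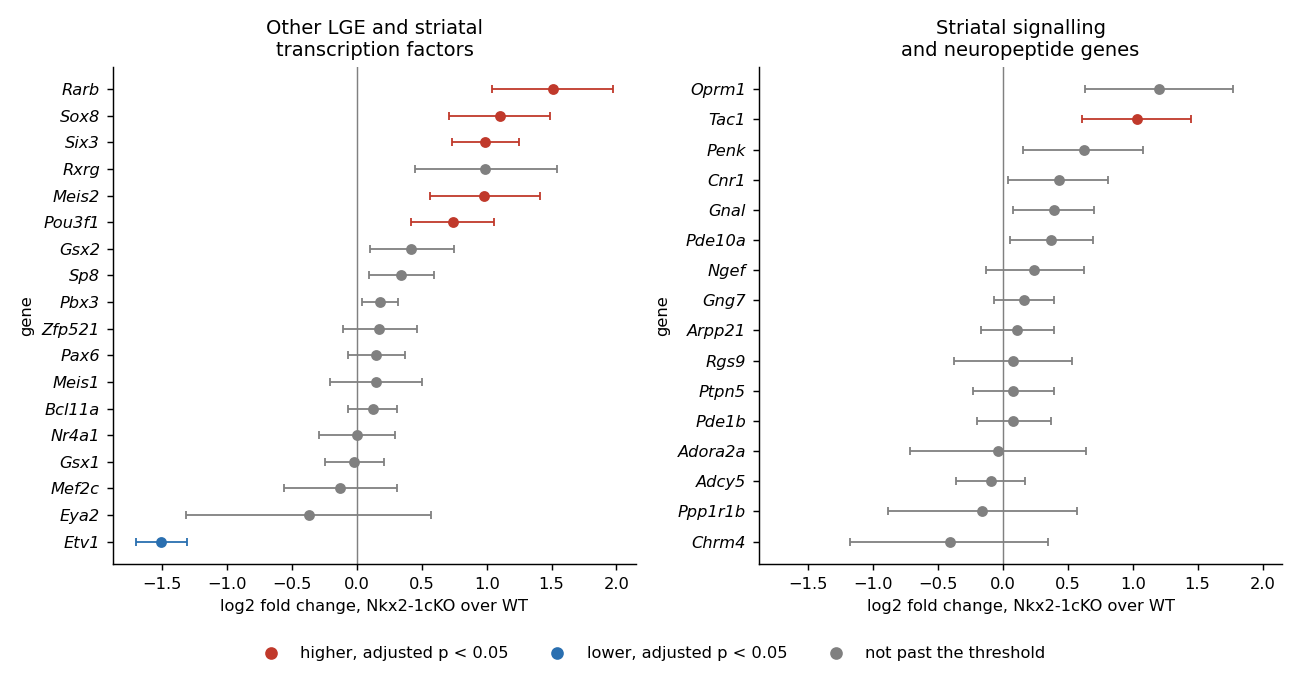
Log2 fold change of Nkx2-1cKO over WT (x axis) with its 95% interval for 18 other LGE and striatal transcription factors (left) and 16 of the 17 tested striatal signalling and neuropeptide genes (right), red where called higher, blue where called lower and grey otherwise. Rarb at 1.51 and Etv1 at -1.51 are the ends of the left panel, and most genes of the right panel have intervals that reach or lie near 0.

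The families of the 10 genes were compared member by member. Of 20 paralogs listed, 16 were tested, none was called higher and 1 was called lower in limma. Their median log2 fold change was -0.08. At an unadjusted limma p of 0.05, 2 were higher and 3 lower, without a share over all genes beside them. The count of 1 lower became 3 without WT replicate 1. With array weights the counts were 1 higher and 3 lower, and with the mean of each gene's probes they were 1 and 2. Isl2, Foxp3 and Drd5 were too dim to test, and Zfp703 had no matched probe. Beside Ebf1 at 1.37, Ebf2 differed by 0.15 (SE 0.16), Ebf3 by -0.17 (SE 0.19) and Ebf4 by -0.64 (SE 0.19), none past the threshold. Beside Foxp2 at 0.60, Foxp4 differed by 0.45 (SE 0.11, limma adjusted p = 0.15) with every mutant array above every WT array. Beside Tle4 at 0.52, Tle6, a divergent member of the family, fell to 41.5% of WT (log2 fold change -1.27, SE 0.13, limma adjusted p = 0.00159). Tle2 differed by -0.74 (SE 0.23, limma adjusted p = 0.334), and Tle1, Tle3 and Tle5 by 0.29, 0.23 and -0.14. Bcl11a differed by 0.12, and Ikzf2 to Ikzf5 by -0.15 to 0.05. Of the other dopamine receptor genes tested, Drd4 differed by 0.20 (SE 0.16). Drd3 was well above background on all 4 WT arrays but only 1 mutant array, so no difference is given for it. The differences between a gene and its paralogs were not tested.

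**Figure D4:**
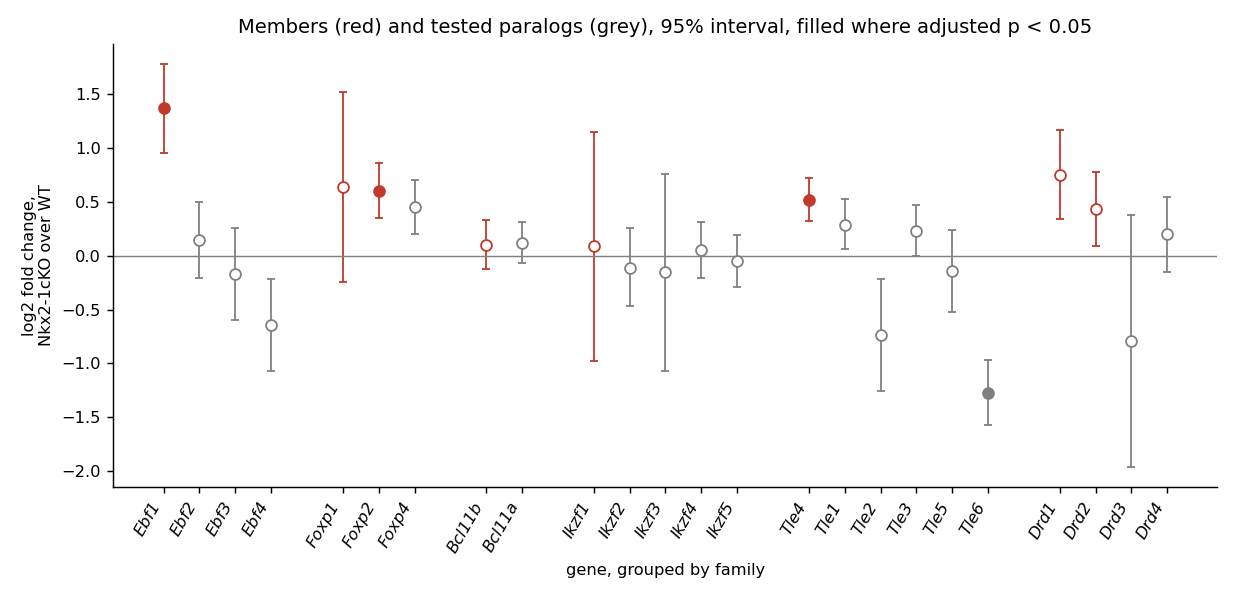
Log2 fold change of Nkx2-1cKO over WT (y axis) with its 95% interval for the genes followed here (red) and their tested paralogs (grey), grouped by family on the x axis and filled where limma's adjusted p was under 0.05. Isl1 and Zfp503, which were called higher as well, are not drawn because no paralog of theirs was tested. Of the genes drawn, Ebf1, Foxp2 and Tle4 are the filled red points, Tle6 at -1.27 is the filled grey point, and Drd3 was well above background on only 1 of the 4 mutant arrays.

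Markers of other cells were read on the same arrays. Of 11 MGE markers, 9 fell and none rose, with a median log2 fold change of -2.94, and of 8 genes of cholinergic neurons, which also use Isl1, 3 fell, Lhx8 and Gbx1 among them, and none rose. Of 9 genes shared by the ganglionic eminences, 1 fell in limma and none rose, with a median log2 fold change of 0.05, and Dlx1 at -0.39 did not pass. At an unadjusted limma p of 0.05, 3 of these 9 were higher and 3 lower, and 3 had every mutant array below every WT array. No gene was called among 10 of young neurons, 14 of dividing progenitors, 11 of the pallium, 8 of red blood cells, 10 of endothelium, 9 of mesenchyme and 10 of microglia. At an unadjusted limma p of 0.05 none of these was higher, while 3 young neuron genes, 2 genes of dividing progenitors, 1 of the pallium and 1 of mesenchyme were lower. No share over all genes stands beside the unadjusted counts of this paragraph. The medians of these 7 lists lay between -0.04 and 0.04 except for mesenchyme at -0.47. The mesenchyme genes summed to 1.77 to 8.23 times the 75th percentile in WT, where WT replicate 4 was the highest array, and to 1.81 to 2.41 in the mutant. On WT replicate 4 Isl1, Zfp503 and Foxp2 were at 0.76, 0.70 and 0.33, the lowest of their WT values. Without that array Isl1, Zfp503 and Ebf1 were called. Foxp2 (limma adjusted p = 0.0734) and Tle4 (limma adjusted p = 0.0857) were not called without it. The part of mesenchyme in these values was not tested.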

How the data were processed

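Labelled RNA of each sample was hybridised to a 1-colour Agilent array. The authors deposited scanner output per array: the processed signal intensity of each spot, after background subtraction by Agilent Feature Extraction (10.7.3.1 in the file headers, 10.1 in the submitters' processing notes). Control spots and outlier flags (76 to 147 spots per array) were left out, each array's 75th percentile was subtracted from its log2 intensities, and repeated spots of 1 probe were averaged. Probes were named through RefSeq accessions (GRCm38.p6): 24844 of 41174 matched 1 of 17178 symbols. A tested probe was well above background on at least 4 of 8 arrays, and the brightest tested probe stood for its gene. WT and Nkx2-1cKO were compared in limma 3.58.1 (R 4.3.3) with a mean-variance trend and Benjamini-Hochberg adjustment over 31288 probes. The fit was tested on simulated data. Of 200 changes of 1 log2 unit put into simulated arrays, 54% were recovered, and 4 of the 112 calls were false. The simulated noise was drawn independently for each probe, without slide or array effects, so these figures may not hold for the real arrays. The number of arrays limits the precision.

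The 10 genes and all lists were chosen with earlier results of these data known. Named were each of the 10 genes, up to 4 called genes of each list with the largest changes or, where fewer passed, the 2 largest others, the label checks and the 5 genes most like Zfp503. Of the lists of other cell types, only counts and a few genes are printed, and some genes of the lists are not reported here by name. Pou3f1, Gsx2, Rxrg, Ppp1r1b and the paralogs were named after their values were seen. Alternatives covered normalization, background correction, filters, slide, replicate number, array weights and each array left out.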

Additional observations from a re-analysis of the deposited data

Results flagged for a closer look

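In the Ikzf1 probe, WT replicate 1 stood at -4.29 on the log2 scale and far from the other 3 WT arrays, which lay between -6.41 and -6.31. The distance was judged against the range of its own group of 4 arrays, and 24 groups were examined in this way, of which chance alone marks about 1 in 20. The processed signal of this probe was 132 on WT replicate 1 and 28 to 31 on the other WT arrays. The probe lay in the dimmest quintile, whose probes on this array were a median of 1.18 log2 units above their median over the other arrays.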

How the results depend on the processing

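Nothing in the labels says that replicate numbers pair the samples, and the deviations of arrays with the same number correlated at -0.481 to -0.194. Arrays of the same number always lay on different slides, and the part of the slide in these correlations was not tested. With a replicate block, 2 of the 10 genes were called higher (Isl1 and Zfp503), and 8 probes were called higher and 65 lower over all tested, against 132 and 192 without it. Ebf1 was not called there (1.37, limma adjusted p = 0.0998). Among the 10 genes, 3 were called higher with centring on the median, with normexp background correction, within slide 1, within slide 2 and without the variance trend, and 3 to 4 when 1 array was left out. None was called lower under any alternative. Over all probes, 115 were called lower with centring on the median, 289 with array weights, 76 within slide 1 and 76 within slide 2. Those called higher were 209 with the slide as a block, 22 within slide 1, 25 within slide 2, and 64 to 120 when 1 array was left out. Foxp1 differed by -0.0017 within slide 2, which holds Nkx2-1cKO replicate 3, and by 1.28 within slide 1. Ikzf1 differed by -0.23 within slide 1, which holds WT replicate 1, and by -0.10 to 0.61 when 1 array was left out. Centring on the median moved the median of all tested probes from -0.04 to 0.079, and all 10 genes remained positive. The list counts under the alternatives were computed after seeing the data. Of the other LGE and striatal transcription factors, 0 were called higher with the replicate block, and of the paralogs none was called in limma with it. Except where stated, the cause of these differences was not tested. Ikzf1, Drd1 and Drd2 were dim, and small differences in them could not be resolved with 4 arrays a group.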
